A study of Mus musculus with 6 samples.

Results

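The immunoglobulin genes of epididymal white adipose tissue (eWAT) are described here by chain and segment, in tumor-bearing mice with cancer-associated cachexia (CAC) and in control mice (CONT). The members are all rows of the count table whose gene biotype is IG_C_gene, IG_V_gene, IG_J_gene or IG_D_gene, which gave 264 of the 55039 genes listed: 13 constant (C), 218 variable (V), 14 joining (J) and 19 diversity (D) genes. All mice were male C57BL/6 animals, 6 to 7 weeks old when assigned to the groups. The CAC mice had received Lewis lung carcinoma (LLC) cells under the skin, the CONT mice had received phosphate-buffered saline (PBS), and tissue was taken 28 days after injection. Each group held 3 mice, with 1 RNA-seq library for each mouse, so the transplanted tumor of a single cell line is the only model of cachexia in these data. Levels are given as reads and as CPM, which is reads scaled to a common library size with the trimmed mean of M values (TMM), and 1 CPM stood for 11.3 to 26.7 reads.

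An antibody is built from paired heavy and light chains. The heavy chain locus joins a V, a D and a J segment and places them before a constant gene, whose choice sets the isotype (IgM, IgD, IgG, IgE or IgA), while the kappa and lambda loci join a V and a J segment before a light chain constant gene. Resting B cells make little immunoglobulin mRNA, plasma cells make very much, and the fat of the body cavities is known for B-1 cells, which secrete natural IgM without prior immunization.

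The V segments printed here are those of the B-1 associated list, since the pair Ighv11-2 and Igkv14-126 gave the most V reads of the series and the pair Ighv12-3 and Igkv4-91 is its known counterpart. Both pairs are known to encode antibodies against phosphatidylcholine. Each line holds the end of the coding V exon, 5′ to 3′ on the coding strand, from the GENCODE M21 annotation of GRCm38 (mm10), and the capitals run from the codon of the conserved last cysteine to the end of the segment, which is the germline start of the third complementarity-determining region. The positions are chr12:114048241-114048540 on the minus strand for Ighv11-2, chr6:67896345-67896642 on the plus strand for Igkv14-126, chr12:114366521-114366820 on the minus strand for Ighv12-3 and chr6:68768555-68768854 on the minus strand for Igkv4-91.
Ighv11-2: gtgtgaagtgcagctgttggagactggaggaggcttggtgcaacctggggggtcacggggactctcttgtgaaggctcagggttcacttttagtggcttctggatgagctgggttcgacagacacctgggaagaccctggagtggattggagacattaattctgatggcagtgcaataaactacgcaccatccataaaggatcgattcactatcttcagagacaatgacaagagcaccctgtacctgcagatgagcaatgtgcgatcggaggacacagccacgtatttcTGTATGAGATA
Igkv14-126: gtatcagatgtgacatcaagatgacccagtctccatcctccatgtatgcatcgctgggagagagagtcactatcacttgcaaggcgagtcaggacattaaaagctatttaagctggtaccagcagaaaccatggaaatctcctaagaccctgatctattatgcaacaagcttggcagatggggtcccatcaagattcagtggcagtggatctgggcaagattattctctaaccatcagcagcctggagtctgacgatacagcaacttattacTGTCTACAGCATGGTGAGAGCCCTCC
Ighv12-3: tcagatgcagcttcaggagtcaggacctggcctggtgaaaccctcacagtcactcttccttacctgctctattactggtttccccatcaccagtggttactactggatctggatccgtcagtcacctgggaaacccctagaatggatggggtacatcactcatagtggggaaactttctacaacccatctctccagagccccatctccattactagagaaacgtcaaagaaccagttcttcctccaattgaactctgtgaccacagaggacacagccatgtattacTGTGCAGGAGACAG
Igkv4-91: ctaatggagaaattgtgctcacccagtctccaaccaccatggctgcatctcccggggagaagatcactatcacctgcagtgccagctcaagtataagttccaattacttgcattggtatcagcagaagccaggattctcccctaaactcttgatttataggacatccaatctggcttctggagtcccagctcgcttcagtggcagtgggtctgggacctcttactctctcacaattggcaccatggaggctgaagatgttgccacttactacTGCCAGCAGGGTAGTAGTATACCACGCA
Ighv11-2 and Ighv12-3 were identical at 67.0% of aligned V exon bases, and Igkv14-126 and Igkv4-91 at 69.4%. The closest other gene of Ighv11-2 was Ighv11-1, with 303 of 307 aligned bases identical, but Ighv11-1 held 4 reads in the whole series against 2720 for Ighv11-2. The closest other gene of Igkv14-126 was Igkv14-111, at 90.9% identity.

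The summed immunoglobulin level was lower in all CAC mice than in all CONT mice, and so were the sums of IgM, IgG and IgD, while IgA, both light chains and the V genes overlapped between the groups. All 264 rows together held 4548, 43670 and 24878 reads in the CONT mice and 4158, 3759 and 1667 reads in the CAC mice. On the CPM scale these were 402, 1897 and 1115 against 169, 150 and 62.4, so every CAC library lay below every CONT library. In CONT mouse 1, Ighm, the IgM constant gene, held 3857 of the 4548 reads. The separation of the whole sum rests on this gene in that mouse, whose other immunoglobulin reads lay within the CAC range of CPM. The log2 fold change of the sum was −3.16 ± 0.68 (SE, n = 3 mice per group), a level 8.93-fold lower in CAC. It ran from −3.54 without CONT mouse 1 to −2.57 without CONT mouse 2. In whole tissue, fewer B-lineage cells and less immunoglobulin mRNA per cell cannot be told apart.

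**Figure D1:**
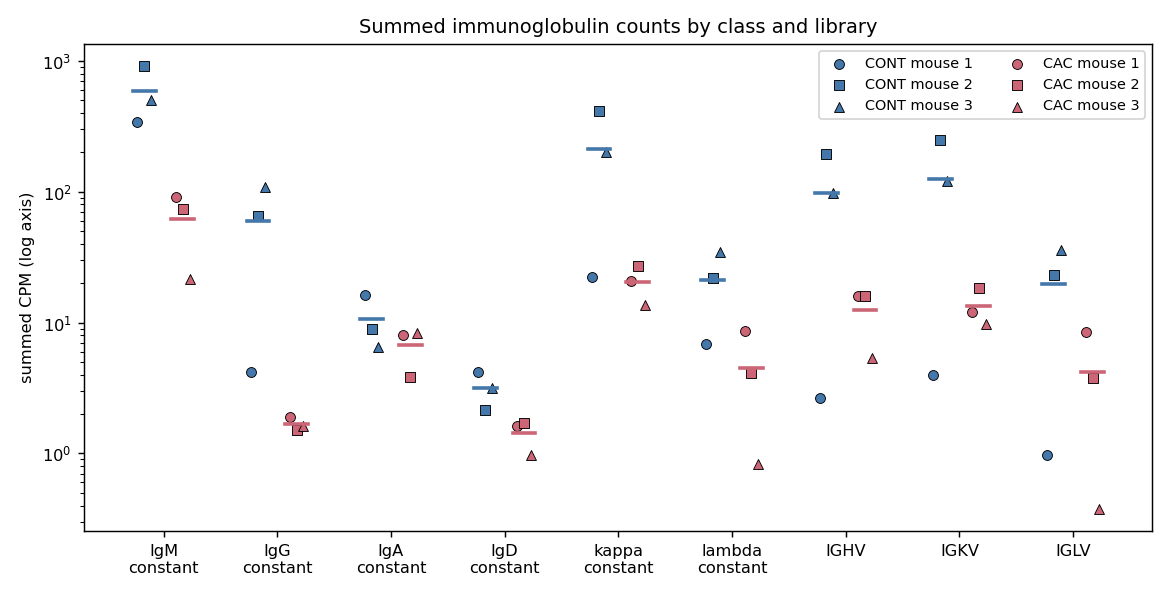
Summed CPM (log axis) of 9 immunoglobulin classes, with 1 point for each library (CONT blue, CAC red, the shape gives the mouse) and a line at the group mean. IgM, IgG and IgD points of CAC lie below all CONT points, while in the kappa, lambda and V classes CONT mouse 1 lies among or below the CAC mice.

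Of the 264 genes, 208 had at least 1 read and 56 had none. Only 36 passed the filter on low counts and were tested: 11 C, 24 V and 1 J gene. In the quasi-likelihood test of edgeR, 0 members had a Benjamini-Hochberg adjusted p under 0.05, against 0% of all 17296 genes tested, and the smallest adjusted p of a member was 0.177. At an unadjusted p under 0.05, 11 of the 36 members were lower in CAC (7 C and 4 V genes), against 6.95% of all genes tested, and 0 were higher, against 6.31%. In 6 members (5 C and 1 V gene) every CAC library was below every CONT library, against 10.7% of all genes tested, and in 0 every CAC library was above, against 11.8%. Ighg1, Iglc3 and Igkv10-96, which are among the 11 and among the 6, passed the filter through the CONT libraries alone. Their separation was fixed by the filter, so for them these counts give no support to the direction. The median log2 fold change was −2.49 over the 36 members and −0.06 over all genes tested. DESeq2, the tool named in the study's methods, called 15 of the 55 members that received an adjusted p lower in CAC (6 C and 9 V genes) and 0 higher. Over all 17160 genes with an adjusted p it called 2.4% lower and 3.22% higher. The 6 C genes were Ighm, Ighg1, Ighg3, Igkc, Iglc2 and Iglc3.

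**Figure D2:**
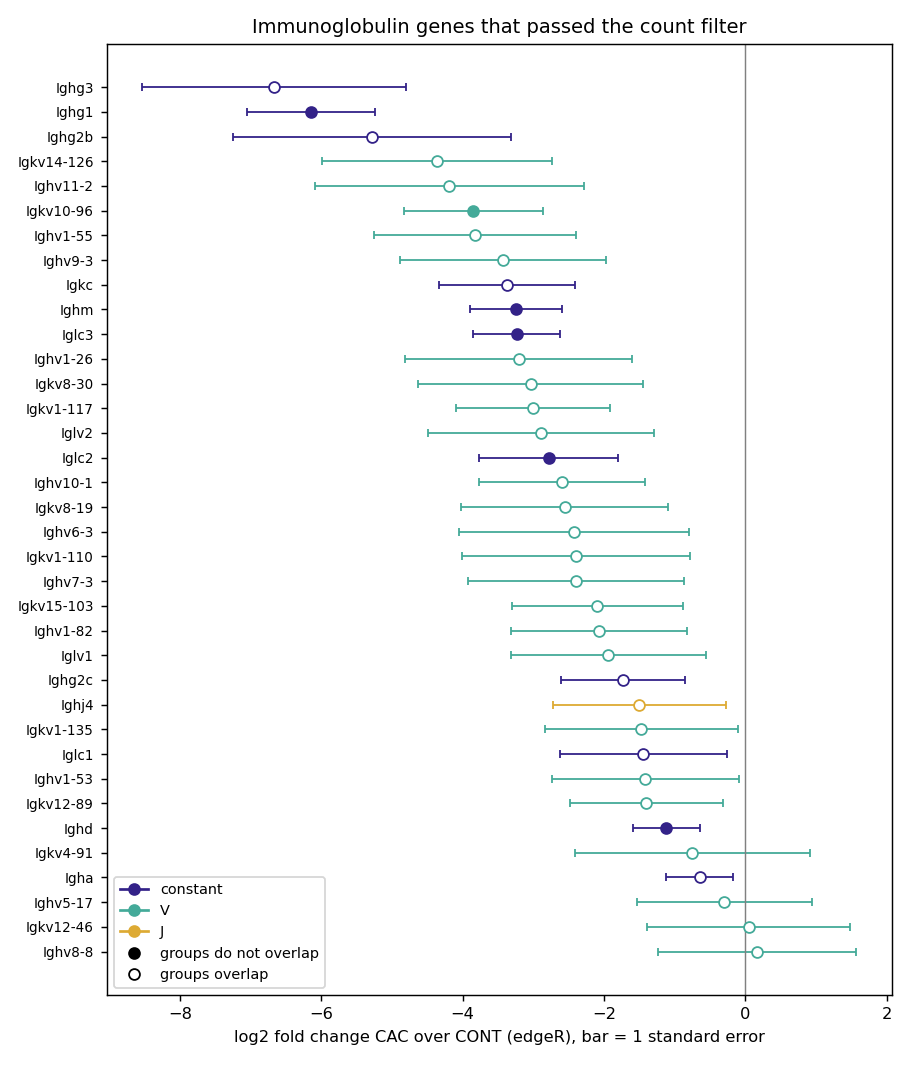
Log2 fold change of CAC over CONT (edgeR) for the 36 immunoglobulin genes that passed the count filter, with bars of 1 standard error, colored by segment, and filled where the 3 CAC and 3 CONT libraries do not overlap. 34 of the 36 genes lie left of 0 (the sign of 5 genes changes when 1 library is left out), and only Ighv8-8 and Igkv12-46 lie to the right.

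The libraries were not alike in other respects. CONT mouse 1 had 30.2% of its counts on mitochondrial genes against 3.89 to 5.04% in the other 5, and it had the fewest total counts (15713794, against 19819755 to 25926425). Its immunoglobulin reads were unusual as well: 86 of 4548 (1.89%, 95% Wilson interval 1.53 to 2.33%) fell on V genes, against 21.6 to 25.3% in the other 5 libraries. It also had 15.4 Ighm reads for each Igkc read, against 1.58 to 4.35 in the others. CONT mouse 3 held genes of the epididymis, at a summed 13447 CPM over a list of 10 genes against 0.160 to 133 CPM in the other libraries. Adipocyte markers were abundant as a sum in all 6 libraries, at 31937 to 70203 CPM over 10 genes. Of the list, Lep was low in CAC mice 2 and 3, at 3.96 and 0.412 CPM against 406 to 692 CPM in CONT. The part of these differences in the immunoglobulin values was not tested. With CONT mouse 1 left out, 48 of 76 tested members were lower in CAC at an unadjusted p under 0.05, against 8.28% of all genes then tested. The filter then asks for only 2 libraries, so the members tested grew from 36 to 76, V genes with reads mostly in CONT mice 2 and 3 such as Ighv1-81 and Igkv6-15 among them, and the count gives no support to the direction. With CONT mouse 3 left out, 7 of 43 were, against 4.25%.

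**Figure D3:**
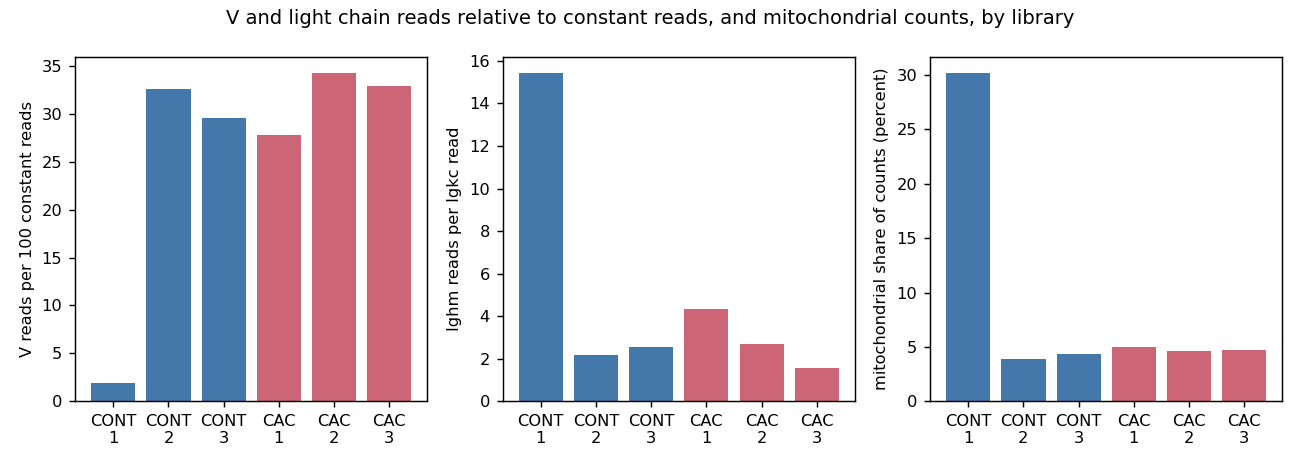
V reads per 100 constant reads, Ighm reads per Igkc read, and mitochondrial share of counts (percent) in each library, as bars from 0 (CONT blue, CAC red). CONT mouse 1 stands apart from the other 5 libraries in each panel, at 1.93 V reads per 100 constant reads against 27.8 to 34.2.

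Among the heavy chain constant genes, Ighm, which encodes the mu chain of IgM, held most of the reads (ENSMUSG00000076617, chr12:113418558-113422730). It had 3857, 20970 and 11287 reads in the CONT mice and 2228, 1827 and 575 in the CAC mice, or 341, 911 and 506 against 90.7, 73.1 and 21.5 CPM. No CAC value reached the lowest CONT value. The log2 fold change was −3.25 ± 0.65 (SE), with an unadjusted p of 0.00181 and an adjusted p of 0.224 by edgeR, while the adjusted p by DESeq2 was 1.24e-05. Left-out libraries moved the log2 fold change between −3.56 and −2.77. Per kilobase, in FPKM as deposited, the mean level of Ighm was 251 in CONT and 27.0 in CAC, close to that of Igkc at 323 and 31.7.

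IgG, the class that B cells reach by switching and that plasma cells secrete after immunization, showed the largest difference of the isotype sums. The Ighg genes together had 47, 1501 and 2422 reads in CONT and 47, 38 and 43 in CAC, or 4.16, 65.2 and 109 against 1.91, 1.52 and 1.61 CPM. The groups did not overlap on the CPM scale, although CONT mouse 1 and CAC mouse 1 had the same number of reads from libraries of unequal size. The log2 fold change was −5.14 ± 1.1 (SE), and −4.35 without CONT mouse 3. The spread was wide in CONT (59.3 ± 52.5 CPM, SD, n = 3) and narrow in CAC (1.68 ± 0.206 CPM).

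Each IgG subclass gene had its own pattern over the mice. Ighg1 had 36, 144 and 63 reads in CONT against 2, 0 and 2 in CAC, which was at least 34.6-fold lower when CAC was set to the floor of 3 counts per library. Its log2 fold change of −6.14 ± 0.90 (SE) had an unadjusted p of 0.000328 and the smallest adjusted p of all members, 0.177 by edgeR. All 3 CONT libraries were above all 3 CAC libraries, including CONT mouse 1. Ighg1 passed the filter on low counts through the CONT libraries alone, so this separation was fixed by the filter. Ighg3 had 2, 304 and 1720 reads against 12, 6 and 4. The groups overlapped through CONT mouse 1, whose 0.177 CPM lay within the CAC range of 0.150 to 0.489 CPM, and the log2 fold change of −6.67 ± 1.87 (SE) had an adjusted p of 0.273 by edgeR and moved to −4.48 without CONT mouse 3. Ighg2b had 0, 971 and 567 reads against 14, 28 and 1, with a log2 fold change of −5.28 ± 1.96 (SE) and an adjusted p of 0.339 by edgeR, and with −4.46 without CONT mouse 2 and −6.18 without CAC mouse 2. Ighg2c, which C57BL/6 mice carry in place of Ighg2a, had 9, 82 and 72 reads against 19, 4 and 36, and here the groups overlapped (log2 fold change −1.73 ± 0.88 (SE), adjusted p 0.437 by edgeR, and −2.43 without CAC mouse 3). The coding sequences of Ighg2b and Ighg2c were identical at 86.2% of aligned bases, the closest pair of the Ighg genes.

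Which subclass led also differed from mouse to mouse. Ighg1 led in CONT mouse 1 (76.6% of 47 IgG reads, Wilson interval 62.8 to 86.4%), Ighg2b in CONT mouse 2 (64.7% of 1501, 62.2 to 67.1%) and Ighg3 in CONT mouse 3 (71.0% of 2422, 69.2 to 72.8%). In the CAC mice the leading gene was Ighg2c in mouse 1 (40.4% of 47, 27.6 to 54.7%), Ighg2b in mouse 2 (73.7% of 38, 58.0 to 85.0%) and Ighg2c in mouse 3 (83.7% of 43, 70.0 to 91.9%). These intervals cover counting error only, as reads were counted without molecular identifiers. No subclass share separated the groups.

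The remaining isotypes differed less. Igha, the heavy chain gene of the IgA of mucosal surfaces, had 184, 206 and 146 reads in CONT and 197, 96 and 223 in CAC, or 16.3, 8.95 and 6.55 against 8.02, 3.84 and 8.35 CPM. The groups overlapped, and the log2 fold change of −0.65 ± 0.47 (SE) had an adjusted p of 0.572 by edgeR and moved to −0.18 without CONT mouse 1. Ighd, whose product is carried on the surface of mature naive B cells, had 47, 49 and 70 reads against 40, 43 and 26. At 4.16, 2.13 and 3.14 against 1.63, 1.72 and 0.974 CPM the groups did not overlap (log2 fold change −1.12 ± 0.47 (SE), adjusted p 0.378 by edgeR). Ighe, the IgE heavy chain gene, had 0 reads in every library, which allows up to 0.112 to 0.265 CPM per library at 3 counts.

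As shares of the heavy chain constant reads, IgM made up 93.3, 92.3 and 81.1% in CONT and 88.7, 91.2 and 66.3% in CAC. The IgG share was 1.14, 6.60 and 17.4% against 1.87, 1.90 and 4.96%. The groups overlapped for both, and the mean IgG share was 5.47 percentage points lower in CAC (8.38 ± 8.27% against 2.91 ± 1.78%, SD, n = 3), or 0.96 points lower without CONT mouse 3. The IgA share was 4.45, 0.906 and 1.05% in CONT and 7.84, 4.79 and 25.7% in CAC, so every CAC mouse was above every CONT mouse. The IgD share likewise did not overlap, at 1.14, 0.216 and 0.503% against 1.59, 2.15 and 3.00%. Shares of one total are bound together, and on the CPM scale the groups did not overlap for IgM, lower in CAC, and overlapped for IgA. No test was made of the shares, since an exact permutation test of 3 against 3 cannot go below a two-sided p of 0.1.

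**Figure D4:**
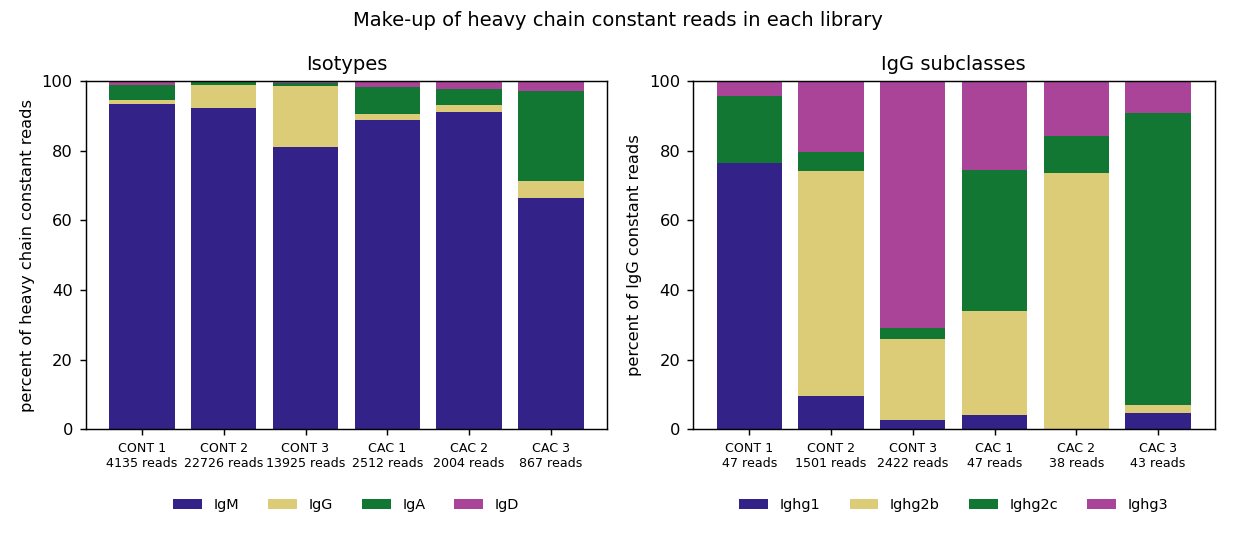
Stacked shares (percent) of the isotypes among heavy chain constant reads and of the 4 subclass genes among IgG constant reads, with 1 bar for each library and its number of reads below. IgM leads in all 6 libraries, the IgA segment is larger in each CAC bar than in any CONT bar, and the leading IgG subclass changes from mouse to mouse.

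In the light chains, Igkc, the single kappa constant gene (ENSMUSG00000076609, chr6:70726435-70726966), had 250, 9597 and 4448 reads in CONT and 512, 674 and 364 in CAC. At 22.1, 417 and 199 against 20.9, 27.0 and 13.6 CPM, CONT mice 2 and 3 were far above all CAC mice and CONT mouse 1 was within the CAC range. The log2 fold change was −3.38 ± 0.96 (SE), with an unadjusted p of 0.0108 and an adjusted p of 0.275 by edgeR, and −2.44 without CONT mouse 2. The lambda constant genes together had 77, 508 and 774 reads against 211, 103 and 22, which overlapped, with a log2 fold change of −2.23 ± 0.91 (SE). This moved to −1.66 without CONT mouse 3 and to −3.03 without CAC mouse 1.

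The lambda locus of the mouse is small, and Iglv2 is known to join mainly to Iglc2, while Iglv1 joins to Iglc3 or Iglc1. Iglc2 had 42, 236 and 502 reads in CONT against 58, 67 and 7 in CAC (log2 fold change −2.78 ± 0.98 (SE), unadjusted p 0.0273, adjusted p 0.327 by edgeR, and −1.96 without CONT mouse 3), and on the CPM scale its groups did not overlap. On plain library totals, a setting added after the data were seen, Iglc2 overlapped through CONT mouse 1, and the other 5 tested members kept their separation. Iglc3 had 22, 84 and 27 reads against 7, 4 and 7 and did not overlap either (−3.24 ± 0.61 (SE), unadjusted p 0.00138, adjusted p 0.215 by edgeR). It passed the filter on low counts through the CONT libraries alone, so its separation was fixed by the filter. Iglc1 had 12, 188 and 245 reads against 144, 32 and 8, and overlapped (−1.45 ± 1.18 (SE), adjusted p 0.613 by edgeR). CAC mouse 1 held 144 of the 184 CAC reads, and without it the log2 fold change was −3.01. Iglc4 had 3 reads in all. Iglc2 and Iglc3 were identical at 303 of 314 aligned coding bases, so the split of reads between them is uncertain, while Iglc1 shared 74.8% with Iglc2 and 75.4% with Iglc3.

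The lambda V genes overlapped between the groups as well. Iglv1 had 8, 342 and 302 reads in CONT and 158, 23 and 7 in CAC. Iglv2 had 2, 173 and 491 reads against 31, 67 and 2. CAC mouse 1 thus led the CAC mice in Iglv1 and Iglc1, and CAC mouse 2 in Iglv2 and Iglc2. In neither V gene did the groups separate (adjusted p 0.56 and 0.466 by edgeR). Their V exons were identical at 97.4% of bases, so the split of reads between them is uncertain. The lambda share of the light chain constant reads was 23.5, 5.03 and 14.8% in CONT and 29.2, 13.3 and 5.70% in CAC, a mean difference of 1.58 percentage points that turned to −4.99 without CAC mouse 1 and −3.14 without CONT mouse 2.

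The V genes of all chains held 86, 10701 and 5667 reads in CONT and 898, 952 and 412 in CAC. CONT mouse 1 had fewer than any CAC mouse, and the groups overlapped for this sum and for the V sum of each chain. The log2 fold changes were −2.98 ± 1.25 (SE) for the heavy chain V genes (IGHV), −3.22 ± 1.20 for the kappa V genes (IGKV) and −2.24 ± 1.36 for the lambda V genes (IGLV). Without CONT mouse 1 they were −3.53, −3.76 and −2.79, and without CONT mouse 2 −2.01, −2.22 and −2.13. IGLV moved most with other libraries, to −1.49 without CONT mouse 3, −1.69 without CAC mouse 3 and −3.19 without CAC mouse 1. The filter on low counts asks for a minimum CPM in at least 3 libraries, so 24 V genes with more reads in total than the least abundant V gene tested were left untested, Igkv6-15 among them. With 1 library left out, the fold change of 22 of the 24 tested V genes and of 6 of the 11 tested C genes moved by over 1.5 times.

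Summed over the 6 libraries, the V genes of the first sequence pair held the most reads, but other genes led in CONT mouse 1 (Igkv10-96), CAC mouse 1 (Iglv1) and CAC mouse 3 (Igkv8-30). Igkv14-126 had 5, 2997 and 653 reads in CONT and 75, 100 and 20 in CAC, with a log2 fold change of −4.36 ± 1.63 (SE), an unadjusted p of 0.0336 and an adjusted p of 0.34 by edgeR, against 0.0207 by DESeq2. Ighv11-2 had 0, 2061 and 506 reads against 62, 85 and 6, with −4.19 ± 1.90 (SE), an unadjusted p of 0.0659 and an adjusted p of 0.405 by edgeR, against 0.3 by DESeq2. Both were highest in CONT mouse 2, and without it their log2 fold changes were −2.52 and −2.47. Both were nearly empty in CONT mouse 1, so neither separated the groups. CONT mouse 1, with 86 V reads, had Ighv11-2 at 0% of 30 IGHV reads and Igkv14-126 at 11.1% of 45 IGKV reads. Over all 6 libraries the groups overlapped in both shares. In the libraries other than CONT mouse 1, Ighv11-2 took 46.3 and 23.3% of IGHV reads in CONT mice 2 and 3 against 15.8, 21.4 and 4.196% in CAC. Igkv14-126 took 52.4 and 24.2% of IGKV reads against 25.3, 21.7 and 7.72%. Apart from CAC mouse 3, whose leading V genes were Igkv8-30 in kappa and Ighv14-4 in the heavy chain, these libraries had the same leading IGHV and IGKV gene.

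Of the second pair, Ighv12-3 had 0, 6 and 0 reads in CONT and 36, 15 and 8 in CAC. On the CPM scale all 3 CAC mice were above all 3 CONT mice, but its 65 reads did not pass the filter and it was not tested. Of the 159 V genes with reads that did not pass, it was the 1 with all CAC libraries above, while 8 had all CAC libraries below (4 on plain library totals), against 11.8% above and 10.7% below over all genes tested. The genes tested passed the filter, so the sets are unlike, and genes with 0 reads in libraries of both groups cannot separate. Igkv4-91 had 0, 68 and 5 reads against 28, 20 and 0, and overlapped (log2 fold change −0.75 ± 1.66 (SE), adjusted p 0.878 by edgeR, and 2.27 without CONT mouse 2). The 4 genes of the list together took 5.81, 48.0 and 20.5% of V reads in CONT and 22.4, 23.1 and 8.25% in CAC.

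Among the other abundant V genes, Igkv10-96 was the 1 tested V gene whose groups did not overlap. It passed the filter on low counts through the CONT libraries alone, so this separation was fixed by the filter and gives no support to the direction. It had 9, 125 and 77 reads in CONT and 1, 7 and 9 in CAC (log2 fold change −3.85 ± 0.98 (SE), unadjusted p 0.00636, adjusted p 0.252 by edgeR). Ighv1-55 had 1, 250 and 83 reads against 3, 16 and 7 (−3.83 ± 1.43, unadjusted p 0.0336 by edgeR, and −2.49 without CONT mouse 2), and Igkv1-117 had 3, 123 and 147 against 19, 13 and 6 (−3.004 ± 1.10, unadjusted p 0.0306 by edgeR). Both overlapped through CONT mouse 1. Igkv6-15, Igkv17-121 and Ighv1-81 did not pass the filter of the edgeR fit, and had at most 8 reads in any CAC library. By DESeq2 their adjusted p was 0.00397, 0.08 and 0.0107. Igkv6-15 had 0, 229 and 120 reads in CONT against 2, 2 and 2, and Ighv1-81 had 0, 156 and 40 against 0 in all CAC libraries. Igkv17-121 was mostly a gene of CONT mouse 3, with 0, 35 and 287 reads against 0, 8 and 2. Ighv1-26 (0, 56 and 301 reads against 5, 20 and 19) and Ighv6-3 (0, 75 and 182 against 44, 5 and 4) were likewise highest in CONT mouse 3, while Igkv8-30 (0, 371 and 212 against 16, 9 and 56) and Igkv1-110 (0, 235 and 91 against 16, 49 and 3) were highest in CONT mouse 2. The adjusted p of these last 4 lay between 0.43 and 0.54 by edgeR. Ighv9-3 and Ighv10-1, which followed Ighv1-55 in the order of unadjusted p among IGHV genes, had 2, 50 and 114 reads against 13, 4 and 0 and 2, 102 and 15 reads against 8, 11 and 3. Their log2 fold changes were −3.43 ± 1.46 and −2.59 ± 1.17 (SE), and −2.33 without CONT mouse 3 and −0.59 without CONT mouse 2.

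**Figure D5:**
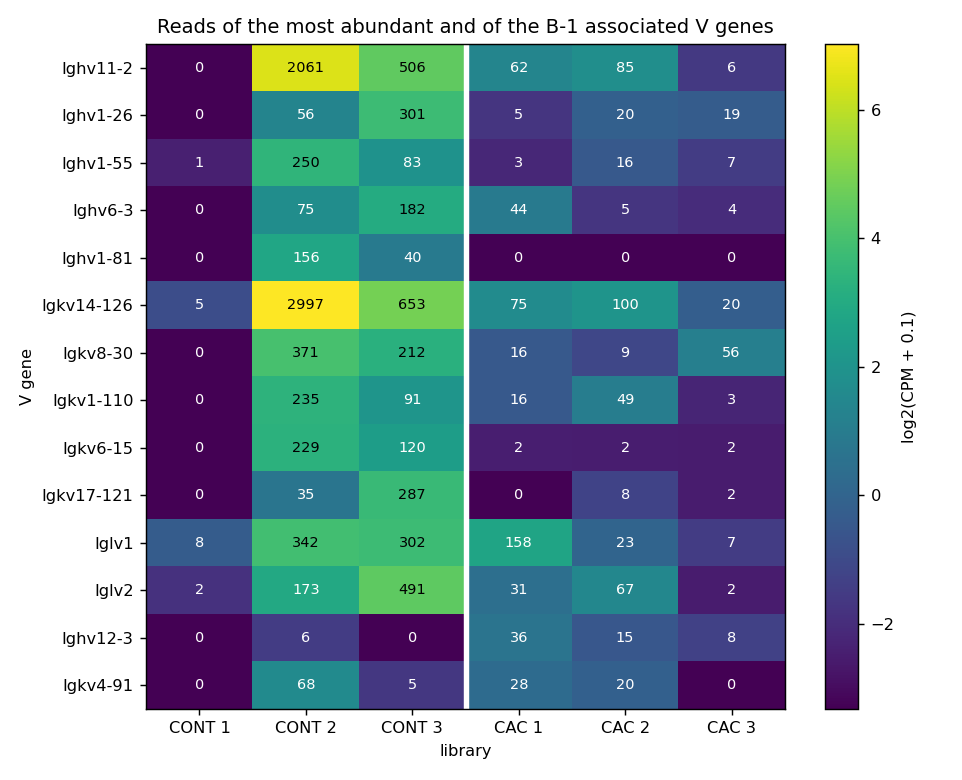
Reads of 14 V genes (the 5 IGHV, 5 IGKV and 2 IGLV genes with the most counts of their chain and the other 2 of the B-1 associated list) in each library, with the color giving log2(CPM + 0.1) and the white line parting CONT from CAC. CONT mice 2 and 3 hold most reads of nearly all rows, CONT mouse 1 is at or near 0 throughout, and Ighv12-3 has more reads in each CAC mouse than in any CONT mouse.

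By family, 13 of 14 IGHV families with reads, 20 of 20 IGKV families and 2 of 3 IGLV families had a lower mean CPM in CAC. The exceptions were the single-gene families Ighv12 and Iglv3. Only Igkv10 had every CAC library below every CONT library, only Ighv12 had every CAC library above, and all other families overlapped. The families were measured in the same mice and are not replicates, and Igkv7, Igkv11 and Igkv20 held 1, 2 and 1 reads in all. The share of all genes with a lower mean was not computed. The Ighv1 family, the largest of the locus with 53 genes, had 3, 1232 and 819 reads in CONT and 80, 131 and 68 in CAC. The Ighv5 family differed least among the larger ones, with 6, 92 and 46 reads against 60, 65 and 6.

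The number of V genes seen tracked the depth. At least 1 read was found for 33, 148 and 128 V genes in CONT and for 101, 102 and 95 in CAC. At a common depth of 86 V reads, the expected numbers were 33.0, 32.9 and 35.9 in CONT and 35.1, 38.9 and 43.6 in CAC, which overlapped. The inverse Simpson index, an effective number of equally used V genes, was 24.2, 8.21 and 22.4 against 17.4, 26.1 and 28.5. CONT mouse 2 had the lowest value, with 28.01% of its V reads on Igkv14-126 alone. Of the V genes, 30 had reads in CONT mice only and 19 in CAC mice only.

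J segments are short and caught few reads. Ighj4, the 1 J gene tested, had 0, 26 and 19 reads in CONT and 5, 12 and 1 in CAC (log2 fold change −1.50 ± 1.22 (SE), adjusted p 0.611 by edgeR, and −2.415 without CAC mouse 2 and −0.91 without CONT mouse 2). Ighj3 had 0, 27 and 12 reads against 7, 5 and 0, and Igkj3, a segment known to be non-functional, had 0, 17 and 7 against 3, 1 and 0. All 3 overlapped. The heavy J genes of GRCm38 (GENCODE M21) are shown because Ighj4 alone of the J genes was tested and because their short length stands against that of the V exons, with the codons of the conserved tryptophan and glycine that close the third complementarity-determining region in capitals. They lie on the minus strand at chr12:113429781-113429833, chr12:113429468-113429515, chr12:113429085-113429132 and chr12:113428514-113428567, in the order printed.
Ighj1: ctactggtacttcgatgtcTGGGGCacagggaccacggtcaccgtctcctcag
Ighj2: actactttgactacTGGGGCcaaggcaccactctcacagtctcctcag
Ighj3: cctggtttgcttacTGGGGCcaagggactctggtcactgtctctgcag
Ighj4: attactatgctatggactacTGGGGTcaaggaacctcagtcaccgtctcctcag
The 4 heavy J genes together had 0, 83 and 42 reads in CONT and 14, 19 and 1 in CAC. Of the 19 D genes, 1 had a read, a single one.

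Genes that mark the cells making these chains were compared as lists. Of 14 B cell genes, 13 were tested and 0 had an adjusted p under 0.05 by edgeR. Cd79b, a signaling chain of the B cell receptor, and Blk, a kinase of the same receptor, were lower at an unadjusted p under 0.05 (log2 fold changes −1.57 ± 0.52 and −1.26 ± 0.44, SE), against 6.95% of all genes tested, and 0 were higher. DESeq2 called 0 of 12, against 2.4% lower and 3.22% higher over all genes. In 6 of the 13 every CAC library was below every CONT library, against 10.7% of all genes tested, and the median log2 fold change was −0.91. The summed level was 47.8 to 59.8 CPM in CONT and 21.1 to 31.9 CPM in CAC, with no overlap. Pax5, a B cell transcription factor, gave 19.5 CPM of the sum in CONT mouse 1 and 0.852 to 1.87 CPM in the other libraries. Without it the sums were 40.3, 52.7 and 46.9 CPM against 30.5, 27.9 and 19.9 CPM. For each read on a B cell gene there were 6.73, 34.8 and 23.3 immunoglobulin reads in CONT and 5.30, 5.14 and 2.96 in CAC.

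Of 11 plasma cell genes, 10 were tested, 0 with an adjusted p under 0.05 by edgeR, and at an unadjusted p under 0.05 2 were lower and 2 higher, against 6.95% and 6.31% of all genes tested. DESeq2 gave the same 4 genes an adjusted p under 0.05, against 2.4% lower and 3.22% higher over all genes. Jchain, which links IgM and IgA into polymers, had 171, 1660 and 845 reads in CONT and 243, 230 and 102 in CAC (log2 fold change −2.45 ± 0.64 (SE), adjusted p 0.261 by edgeR). Mzb1, a chaperone of antibody assembly, had 21, 132 and 68 reads against 13, 17 and 15 (−2.58 ± 0.56 (SE), adjusted p 0.228 by edgeR). Both were lower in every CAC library on the CPM scale. Irf4 and Xbp1, transcription factors of plasma cells that adipocytes and macrophages also express, were higher in every CAC library, with 25769 of the 32948 Irf4 reads in CAC mouse 2. The sum of the list, with both genes in it, was 276 to 601 CPM in CONT and 571 to 1697 CPM in CAC. For 100 constant gene reads, there were 3.83, 5.06 and 4.41 Jchain reads in CONT and 7.51, 8.27 and 8.14 in CAC, without overlap.

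The genes of antibody gene rearrangement were near 0. Rag1 had 5 reads in all, Rag2 0 and Dntt 5. None of the 4 surrogate light chain genes of B cell precursors passed the filter. Of 10 genes of antibody transport and Fc receptors, 9 were tested, 0 with an adjusted p under 0.05 by edgeR. Fcer1g, the shared signaling chain of Fc receptors, was the 1 member at an unadjusted p under 0.05 (log2 fold change −0.82 ± 0.22, SE), against 6.95% of all genes tested, and DESeq2 called it alone of the 9, against 2.4%. Pigr, which carries polymeric IgA and IgM across epithelia, had 15, 29 and 18 reads in CONT and 29, 73 and 158 in CAC (1.56 ± 0.66 (SE), adjusted p 0.379 by edgeR), with overlap on the CPM scale. T cell genes, at 13.6 to 20.7 CPM in CONT and 10.1 to 15.5 CPM in CAC, and macrophage genes, at 822 to 2214 and 967 to 1623 CPM, overlapped between the groups as sums. Of the 10 macrophage genes tested, Mertk, a receptor for dying cells, was higher (log2 fold change 1.37 ± 0.30 (SE), adjusted p 0.228 by edgeR and 0.00279 by DESeq2) and C1qa, a complement chain, lower (−1.01 ± 0.39 (SE), adjusted p 0.35 by edgeR) at an unadjusted p under 0.05, against 6.31% higher and 6.95% lower over all genes tested.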

How the data were processed

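RNA-seq of eWAT was analysed in 3 CONT and 3 CAC mice. The table deposited by the authors holds raw counts per gene and FPKM, which the authors normalized for length and depth. The submitters' processing notes name HISAT2 2.0.5 and featureCounts 1.5.0-p3, and the gene positions in the table are those of GRCm38. How reads matching several genes were treated is not given in the sources used here. Total counts were 15713794 to 25926425 per library.

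Counts of the whole table were fitted with edgeR 4.0.16 (R 4.3.3; filterByExpr, TMM, robust quasi-likelihood, condition only), with Benjamini-Hochberg adjustment over 17296 genes. p-values measure the spread between 3 mice per group. Class sums replaced their members in the same fit and carry a fold change and SE but no p. Named were all C genes, the 5 IGHV, 5 IGKV and 2 IGLV genes with most counts, the 3 IGHV and 3 IGKV genes with the smallest p, the 3 J genes with most counts, and the B-1 associated list; single further genes (Ighv8-8, Igkv12-46, Ighv14-4, Igkv14-111, Ighv11-1) were named after their values were seen. The members and gene lists were chosen with earlier results of these data known. Shares have 95% Wilson intervals, V exons were aligned with Biopython, and alternatives used DESeq2 1.42.0, limma 3.58.1 on log2(FPKM + 1) and each library left out. No 2 libraries of a group were copies.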

Additional observations from a re-analysis of the deposited data

How the results depend on the processing

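The log2 fold changes of the 10 class sums and both shares moved by less than 1 SD under every alternative run on them. The class sums and the IgG share difference kept their sign. The lambda share difference did not, and ran from −4.99 to 6.755 points with 1 library left out. For the sums the alternatives were other scalings, DESeq2, the replicate block, each left-out library and, for 4 sums with V genes, added pseudogene rows or the top V gene left out. For the shares they were FPKM and each left-out library. The counts of members moved under several settings. In place of 0 with an adjusted p under 0.05, DESeq2 gave 15, while 0 remained under all other settings. In place of 11 lower at an unadjusted p under 0.05, there were 39 without the filter on low counts (of 208 tested, against 3.52% of all genes), 44 by DESeq2 (of 207, against 5.21%) and 6 with the replicate number as a block (of 36, against 6.29%), and 7 to 48 with 1 library left out, the highest without CONT mouse 1 (of 76, against 8.28%), the lowest without CONT mouse 3 (of 43, against 4.25%) and 17 without CAC mouse 3 (of 73, against 4.47%). In place of 0 higher, limma gave 1 with FPKM + 1 (of 56, against 7.93% of all genes), 1 with FPKM + 0.1 (of 56, against 7.83%) and 2 without its filter (of 208, against 4.05%). Leaving out 1 library gave 0 to 1, the 1 without CONT mouse 2 (of 39, against 4%). Apart from the number of genes tested, the cause was not tested. The replicate numbers did not pair the mice: deviations of equal numbers correlated at 0.306, −0.151 and −0.218, and not every library correlated best with its own number. The IgG share difference ranged from −9.09 to −0.962 points with 1 library left out. Depth limits the segments: 56 of the 183 V genes with reads, 5 of 12 J genes and the 1 D gene had under 10 reads in the whole series.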
